A study of Homo sapiens with 10 samples.

Results

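The genes described here are 9 genes of mucins and of mucin-type glycosylation, of the 23170 genes listed in each table: the mucins MUC1, MUC13, MUC15, MUC16 and MUC20 and the glycosyltransferases GALNT3, B3GNT3, FUT1 and ST6GALNAC1. They were chosen by gene symbol, and each symbol was found in exactly 1 row. RNA sequencing was done on 10 samples of 4 lines that go back to PC3, a line of human prostate cancer cells, to compare a mesenchymal line with an epithelial one and with the same line made to express an OVOL transcription factor. PC3-Epi (2 samples) is a luciferase-labelled epithelial subpopulation of PC3. PC3-EMT14 (3 samples) is 1 of the mesenchymal subpopulations isolated after PC3-Epi cells were grown with IL4-treated human macrophages. Lentiviral overexpression of OVOL1 in this mesenchymal line gave PC3-EMT14-OVOL1 (3 samples), and that of OVOL2 gave PC3-EMT14-OVOL2 (2 samples). Both OVOL lines were compared with PC3-EMT14 itself, and no line carrying an empty vector is among the samples. All 4 lines therefore share the PC3 background, and each state is represented by 1 line.

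Mucins are proteins with long stretches of serine and threonine that carry dense O-linked sugar chains, and the membrane-bound ones, which include all 5 mucins here, form a coat on the apical face of epithelial cells. The chains are built in the Golgi. A GalNAc transferase such as GALNT3 attaches the first sugar, further enzymes such as B3GNT3 extend the chain, and sialyltransferases such as ST6GALNAC1 or fucosyltransferases such as FUT1 cap it. The sugars that result, among them the Tn, sialyl-Tn and blood group antigens, are often altered in carcinomas.

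Each table gives 1 pooled value per line in FPKM (fragments per kilobase of transcript, scaled to the size of the library), so levels are per transcript length. The values of single samples were not analysed here, so no value has a replicate error, the sequencing depth behind it is unknown, and no difference was tested. A gene was counted as past the fold when the higher line was at 1 FPKM or more and the ratio was at least 2 or at most 0.5. In bulk RNA, fewer cells of a type and less RNA per cell cannot be told apart. Each line's level is taken from its own table against PC3-EMT14, and the level of PC3-EMT14 from the table with PC3-Epi. The PC3-EMT14 values of the 2 OVOL tables were lower than these by a nearly constant factor (median 0.979 and 0.969). Every ratio comes from within a table.

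The labels were first checked on the genes that define the lines. OVOL1 was at 0.0243 FPKM in PC3-EMT14, 11.3 in PC3-EMT14-OVOL1, 0.0701 in PC3-EMT14-OVOL2 and 4.25 in PC3-Epi. OVOL2 was at 0.383 FPKM in PC3-EMT14, 0.562 in PC3-EMT14-OVOL1, 831 in PC3-EMT14-OVOL2 and 9.91 in PC3-Epi, so each factor was high in the line named for it and OVOL2 was far above its level in PC3-Epi. The 4 epithelial markers CDH1, EPCAM, KRT8 and KRT18 summed to 229 FPKM in PC3-EMT14, 388 in PC3-EMT14-OVOL1, 649 in PC3-EMT14-OVOL2 and 922 in PC3-Epi. The mesenchymal markers VIM, ZEB1, FN1 and CDH2 summed to 333, 219, 105 and 87.7 FPKM in the same order, most of it VIM (271 FPKM in PC3-EMT14 and 42.5 in PC3-Epi). FN1 was at 36.8 FPKM in PC3-EMT14, 16.5 in PC3-EMT14-OVOL2 and 33.8 in PC3-Epi, and CDH2 at 18.0, 10.1 and 11.3, so these were not lowest in PC3-Epi. Of the prostate luminal markers, KLK3 and KLK2 were listed at 0 in all 4 lines. The 6 macrophage markers were each below 0.1 FPKM in every line, with sums between 0.163 and 0.290 FPKM.

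GALNT3, B3GNT3, FUT1 and MUC1 were past 2-fold between PC3-Epi and PC3-EMT14 and have a RefSeq promoter sequence next to the deposited start. The upstream bases of these 4 genes are shown with matches to the E-box, which ZEB1, a repressor of epithelial genes, binds. MUC13, below 1 FPKM in every line, has such a sequence too, with 0 matches, and it is not shown. ZEB1 was at 7.59 FPKM in PC3-EMT14, 4.25 in PC3-EMT14-OVOL1, 1.77 in PC3-EMT14-OVOL2 and 0.130 in PC3-Epi. Across the lines ZEB1 ran opposite to GALNT3, B3GNT3 and FUT1 but not to MUC1, and its part in their levels was not tested. The search was for CAGGTG and CACCTG, which are the same E-box read on either strand. Capitals mark each match, and the sequences run 5′ to 3′ on the strand of the gene, ending at the base before the deposited start. They come from RefSeq (GRCh38.p14), and each matched GRCh37 (hg19, the build of the tables) exactly once on its chromosome. The positions are chr1:155162701-155162950 for MUC1, chr2:166650804-166651007 for GALNT3, chr19:17905697-17905918 for B3GNT3 and chr19:49258648-49258865 for FUT1, with B3GNT3 on the plus strand and the others on the minus strand.
MUC1: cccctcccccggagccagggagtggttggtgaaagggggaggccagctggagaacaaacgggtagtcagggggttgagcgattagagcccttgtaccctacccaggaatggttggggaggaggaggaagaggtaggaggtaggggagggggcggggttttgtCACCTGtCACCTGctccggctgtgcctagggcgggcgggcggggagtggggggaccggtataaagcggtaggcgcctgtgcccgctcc
GALNT3: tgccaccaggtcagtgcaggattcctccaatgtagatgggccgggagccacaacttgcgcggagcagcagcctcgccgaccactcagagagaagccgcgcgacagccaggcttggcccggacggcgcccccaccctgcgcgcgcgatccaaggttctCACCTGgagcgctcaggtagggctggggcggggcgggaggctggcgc
B3GNT3: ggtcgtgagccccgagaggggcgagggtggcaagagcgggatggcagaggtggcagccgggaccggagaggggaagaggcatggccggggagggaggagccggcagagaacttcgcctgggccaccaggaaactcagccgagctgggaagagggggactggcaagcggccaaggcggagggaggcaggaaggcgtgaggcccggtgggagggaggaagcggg
FUT1: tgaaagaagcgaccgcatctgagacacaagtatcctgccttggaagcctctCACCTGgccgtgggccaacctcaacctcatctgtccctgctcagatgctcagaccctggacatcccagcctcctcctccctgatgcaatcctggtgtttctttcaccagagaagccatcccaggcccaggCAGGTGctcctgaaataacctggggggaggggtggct

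MUC1 held a pair of adjacent E-boxes, which began 88 and 81 bases before its start. GALNT3 held 1, which began 47 bases before the deposited start. FUT1 held 1 on each strand, 167 and 37 bases before the deposited start, and B3GNT3 held none. RefSeq windows of 250 bases were found for 6 of the 9 genes, some with more than 1 window. Of their 9 windows, 5 held an E-box (both of MUC1, which overlap, and 1 each of MUC16, GALNT3 and FUT1), and of all 35116 windows 17.5% did. The windows of MUC16 belong to starts 29067 and 84409 bases upstream of the deposited one. A match is a stretch of letters and no evidence of binding. ST6GALNAC1, MUC15 and MUC20 had no entry.

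**Figure D1:**
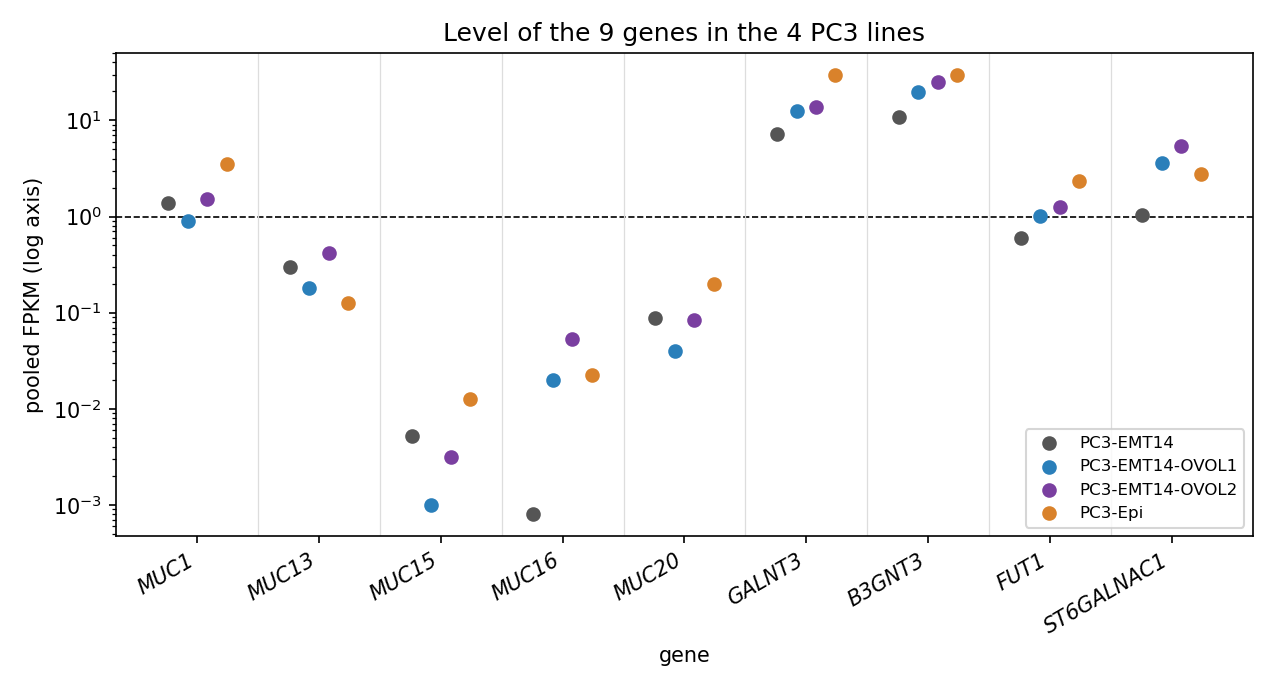
Pooled FPKM (log axis) of the 9 genes in the 4 lines, 1 point per line and no error since the tables pool the samples. The dashed line is 1 FPKM. MUC13, MUC15, MUC16 and MUC20 lie below it in every line, and GALNT3 and B3GNT3 lie highest.

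Among the mucins chosen for this description, only MUC1 reached 1 FPKM in any line. MUC1, a membrane mucin of glandular epithelia whose gene spans chr1:155158300-155162700 (hg19, minus strand, 8 exons in the canonical transcript), was at 1.39 FPKM in PC3-EMT14, 0.903 in PC3-EMT14-OVOL1, 1.54 in PC3-EMT14-OVOL2 and 3.50 in PC3-Epi. Its level in PC3-Epi was 2.52 times that in PC3-EMT14 (log2 ratio 1.34). The OVOL lines lay on opposite sides of PC3-EMT14, with a ratio of 0.665 for OVOL1 and 1.14 for OVOL2, and neither was past 2-fold. The ratio of PC3-EMT14-OVOL2 to PC3-EMT14-OVOL1 was 1.72. In both OVOL lines MUC1 was thus below its level in PC3-Epi.

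The isoform tables list 7 isoforms of MUC1, of which 3 carried nearly all of its FPKM. The isoform TCONS_00003007 was at 0.101 FPKM in PC3-EMT14 and 1.56 in PC3-Epi, or 7.31% and 44.4% of the gene. It made up 10.7% of MUC1 in PC3-EMT14-OVOL1 and was listed at 0 in PC3-EMT14-OVOL2. TCONS_00003012 was the most abundant isoform in all 4 lines, with 72.0% in PC3-EMT14, 58.3% in PC3-EMT14-OVOL1, 76.8% in PC3-EMT14-OVOL2 and 47.1% in PC3-Epi. The gap between PC3-Epi and the other lines in MUC1 was therefore mostly one of TCONS_00003007, and the tables do not pair these identifiers with known transcripts. The split between isoforms is an estimate at a low level of the gene, and it has no error here.

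**Figure D2:**
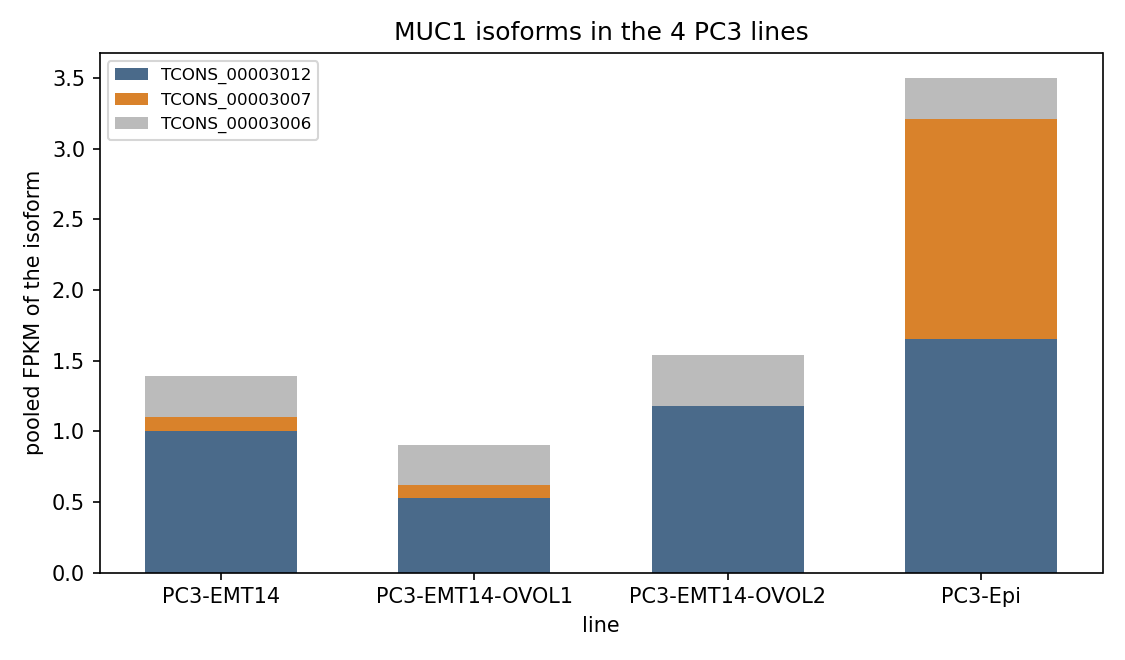
Pooled FPKM of the 3 main MUC1 isoforms, stacked, in each of the 4 lines. TCONS_00003007 is 44.4% of MUC1 in PC3-Epi and at most 10.7% in the other 3 lines.

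The other 4 mucins were below 1 FPKM in every line, so no ratio is given for them. MUC13, a membrane mucin of the gut (chr3:124624289-124653595, minus strand, 12 exons), was at 0.300 FPKM in PC3-EMT14, 0.180 in PC3-EMT14-OVOL1, 0.419 in PC3-EMT14-OVOL2 and 0.125 in PC3-Epi, so that it was lowest where MUC1 was highest. MUC20 (chr3:195447753-195464540, plus strand, 4 exons), a membrane mucin best known from kidney, was at 0.0880, 0.0399, 0.0848 and 0.197 FPKM in the same order. MUC20 lies within the lncRNA gene MUC20-OT1 and has the pseudogene MUC20P1 close by, so reads may have been shared among them. MUC16, the very large mucin that carries an ovarian cancer antigen (chr19:8959520-9092018, minus strand, 84 exons), was at 0.000806 FPKM in PC3-EMT14, 0.0197 in PC3-EMT14-OVOL1, 0.0537 in PC3-EMT14-OVOL2 and 0.0226 in PC3-Epi. MUC15 was between 0.000992 FPKM in PC3-EMT14-OVOL1 and 0.0126 in PC3-Epi. Its row runs from 26353678 to 26684836 on chromosome 11 and overlaps that of ANO3 on the opposite strand, while the annotated MUC15 gene is only chr11:26580579-26593810 (5 exons). Messenger RNA of MUC15 and MUC16 was thus at or near 0 in all 4 lines.

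GALNT3 and B3GNT3 were the most abundant of the 9 genes in every line. GALNT3, which attaches the first GalNAc to serine or threonine (chr2:166604313-166650803, minus strand, 11 exons), was at 7.29 FPKM in PC3-EMT14, 12.4 in PC3-EMT14-OVOL1, 13.9 in PC3-EMT14-OVOL2 and 29.4 in PC3-Epi. PC3-Epi was 4.04-fold above PC3-EMT14 (log2 ratio 2.01), the largest ratio of the 5 genes over 1 FPKM in that comparison. The ratio to PC3-EMT14 was 1.73 with OVOL1 and 1.97 with OVOL2, the latter just short of 2-fold and past it (log2 ratio 1.02) when the ratios were centred on the median gene. In FPKM of GALNT3, both OVOL lines lay closer to PC3-EMT14 than to PC3-Epi.

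B3GNT3, which adds GlcNAc to extend the chain on the core (chr19:17905919-17924385, plus strand, 3 exons), was at 11.0 FPKM in PC3-EMT14, 19.5 in PC3-EMT14-OVOL1, 25.1 in PC3-EMT14-OVOL2 and 29.7 in PC3-Epi. PC3-Epi was 2.71-fold above PC3-EMT14, and the ratio was 1.82 with OVOL1 and 2.36 with OVOL2. With OVOL2, B3GNT3 was thus closer to its level in PC3-Epi than GALNT3 was, and with OVOL1 both were below 2-fold.

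FUT1, the fucosyltransferase that makes the H antigen on which the blood group sugars are built (chr19:49251268-49258647, minus strand, 2 exons), was at 0.595 FPKM in PC3-EMT14, 1.00 in PC3-EMT14-OVOL1, 1.26 in PC3-EMT14-OVOL2 and 2.33 in PC3-Epi. Its ratios to PC3-EMT14 were 1.72, 2.19 and 3.91 in that order. With 1 FPKM added to both values, the log2 ratio with OVOL2 was 0.52 and no longer past 2-fold. FUT1 passed the floor of 1 FPKM only through the higher line of each comparison. GALNT3, B3GNT3 and FUT1 shared 1 order, from PC3-EMT14 as the lowest through the OVOL1 and then the OVOL2 line to PC3-Epi as the highest, which 7.77% of the 12634 genes at 1 FPKM or more in a line had. The summed epithelial markers ran in this order too, and their part in the result was not tested.

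Among the 5 described genes at 1 FPKM or more, ST6GALNAC1 alone was not highest in PC3-Epi. This sialyltransferase, which adds sialic acid to the first GalNAc and so makes sialyl-Tn (chr17:74620845-74639894, minus strand, 9 exons), was at 1.03 FPKM in PC3-EMT14, 3.57 in PC3-EMT14-OVOL1, 5.40 in PC3-EMT14-OVOL2 and 2.80 in PC3-Epi. Against PC3-EMT14 it was 2.72-fold higher in PC3-Epi, and the ratio was 3.55 with OVOL1 and 5.43 with OVOL2. Both OVOL lines were thus above PC3-Epi, whereas GALNT3, B3GNT3, FUT1 and MUC1 were highest in PC3-Epi. In the comparison with OVOL2, PC3-EMT14 was at 0.995 FPKM, so ST6GALNAC1 passed the floor there only through the OVOL2 line. With 1 FPKM added to both values, its log2 ratios fell from 1.83 to 1.19 with OVOL1 and from 2.44 to 1.68 with OVOL2. In PC3-Epi it was then 0.91 and no longer past 2-fold. The order of ST6GALNAC1 was that of 2.32% of the 12634 genes, the GalNAc transferase GALNTL4 among them, and that of MUC1 of 2.85%. With 1 pooled value per line, which neighbours in any of these orders differ beyond the spread between samples is unknown.

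**Figure D3:**
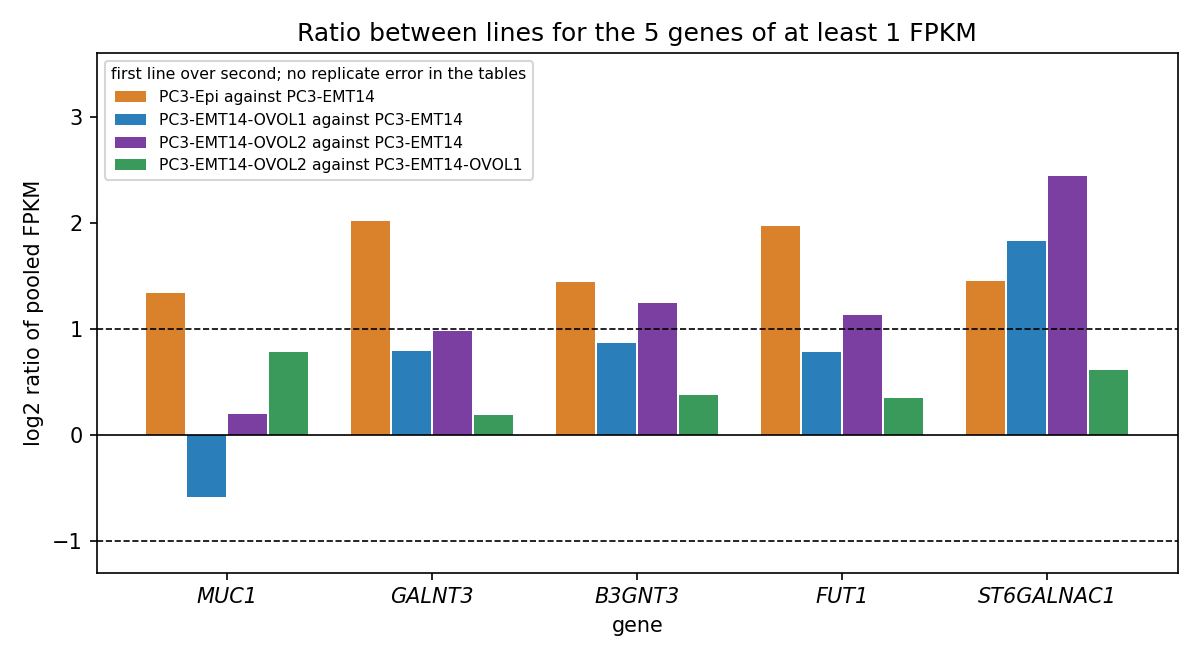
Log2 ratio of pooled FPKM for the 5 genes at 1 FPKM or more, 1 bar per comparison, with dashed lines at 2-fold in either direction. ST6GALNAC1 has its largest ratios in the OVOL lines (1.83 and 2.44), while GALNT3, FUT1 and B3GNT3 have theirs in PC3-Epi.

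In each comparison 5 of the 9 genes were at 1 FPKM or more in the higher line and so could be counted, and the shares over all genes are of those at that level. Counted over the list, 5 of the 9 genes were past 2-fold higher in PC3-Epi than in PC3-EMT14 (MUC1, GALNT3, B3GNT3, FUT1 and ST6GALNAC1) and 0 lower, beside 7.37% of 12441 genes higher and 8.34% lower. With OVOL1, 1 of the 9 (ST6GALNAC1) was past 2-fold higher and 0 lower, beside 2.43% of 12197 genes higher and 1.54% lower. With OVOL2, 3 of the 9 (ST6GALNAC1, B3GNT3 and FUT1) were higher and 0 lower, beside 4.42% of 12307 genes higher and 2.93% lower. The median log2 ratio over all 9 genes was 1.44 in PC3-Epi, 0.78 with OVOL1 and 0.98 with OVOL2, where that over all genes with both values above 0 was -0.04, -0.02 and -0.03. These medians rank all genes, including the 4 mucins below 1 FPKM, whose ratios rest on values near 0. These 3 comparisons share the PC3-EMT14 samples, so they are not independent of each other.

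Between the OVOL lines, 0 of the 9 genes, 5 of which were at 1 FPKM or more, were past 2-fold in either direction, beside 1.9% of 12188 genes higher with OVOL2 and 1.17% lower. The ratios of PC3-EMT14-OVOL2 to PC3-EMT14-OVOL1 were 1.14 for GALNT3, 1.30 for B3GNT3, 1.27 for FUT1, 1.53 for ST6GALNAC1 and 1.72 for MUC1. All 5 ratios were above 1, as were those of 5178 of the 12188 genes. The median log2 ratio was -0.04 over genes at 1 FPKM or more in the higher line. Over all genes with both values above 0 it was 0.00. MUC1 (0.893 against 1.54 FPKM) and FUT1 (0.992 against 1.26) passed the floor here only through the OVOL2 line. OVOL2 was expressed at 831 FPKM and OVOL1 at 11.3 in their lines, so the factor and its level cannot be told apart.

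The rest of the pathway was covered by 86 further genes in 8 lists, of which 82 were found (in 88 rows). The enzyme lists go by family, and which of the enzymes act on mucins was not examined. In PC3-Epi, 43 rows were at 1 FPKM or more in the higher line, of which 3 were past 2-fold higher and 10 lower than in PC3-EMT14, beside the 7.37% and 8.34% of all genes. With OVOL1, 1 of 43 was higher and 0 lower, beside 2.43% and 1.54%. With OVOL2, 4 of 44 were higher and 2 lower, beside 4.42% and 2.93%. Their median log2 ratio was -0.03 in PC3-Epi, -0.00 with OVOL1 and 0.04 with OVOL2, close to that of all genes. This is a description, with no test of a difference between the 9 genes and the rest of the pathway.

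Of these genes, 3 were past 2-fold in at least 2 of the 3 comparisons against PC3-EMT14. FUT3, the Lewis fucosyltransferase, was at 0.0485 FPKM in PC3-EMT14, 1.34 in PC3-EMT14-OVOL1, 3.80 in PC3-EMT14-OVOL2 and 14.9 in PC3-Epi, which is the order seen for FUT1. Its near-identical neighbours FUT5 and FUT6 stayed at or below 0.164 FPKM in every line, and reads that fit more than 1 of the 3 may have been split among them. ST3GAL1, which caps the galactose of the core with sialic acid, ran the other way, with 128 FPKM in PC3-EMT14, 66.0 in PC3-EMT14-OVOL1, 44.3 in PC3-EMT14-OVOL2 and 34.6 in PC3-Epi. Its log2 ratios to PC3-EMT14 were -0.92, -1.48 and -1.89. CHST2, which adds sulfate to GlcNAc, was at 24.7 FPKM in PC3-EMT14, 13.4 in PC3-EMT14-OVOL1, 11.6 in PC3-EMT14-OVOL2 and 0.908 in PC3-Epi. The 2 sialyltransferases ST6GALNAC1 and ST3GAL1 thus differed in direction in all 3 comparisons.

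By role, the sialyltransferases other than ST6GALNAC1 held the most genes lower in PC3-Epi. Of 10 of them at 1 FPKM or more, 4 were past 2-fold lower (ST3GAL1, ST3GAL3, ST3GAL5 and ST3GAL6, with log2 ratios from -1.96 to -1.57) and 0 higher, beside 8.34% of all genes lower and 7.37% higher. This list was singled out after its values were seen, and which of its enzymes act on mucins was not examined. Of 10 other GalNAc transferases at that level, GALNT10 was higher (log2 ratio 1.11) and GALNT14 lower (-1.11), and the most abundant, GALNT2, was at 119 FPKM in PC3-EMT14 and 113 in PC3-Epi. None of these 10 was past 2-fold in either OVOL line, and neither was GALNT3, with ratios of 1.73 and 1.97. Among the core enzymes, C1GALT1 and its chaperone C1GALT1C1 had log2 ratios between -0.38 and -0.08 in all 3 comparisons, and GCNT3, which branches the core, was lower in PC3-Epi (2.27 against 0.189 FPKM). Of 11 chain extension enzymes besides B3GNT3, B3GNT9 and GCNT2 were lower in PC3-Epi (log2 ratios -1.50 and -1.25), and none was past 2-fold in the OVOL lines. Of the other mucins found, only the gel-forming MUC2 and MUC5B were at 1 FPKM or more. MUC3A, MUC5AC, MUC19 and MUC22 were not found by symbol, so their levels are unknown. MUC2 was at 2.65 FPKM in PC3-EMT14 and 0.375 in PC3-Epi, and MUC5B was at 2.50 FPKM in PC3-EMT14 and 5.58 in PC3-EMT14-OVOL2. Of the secretion partners, the trefoil peptides TFF1 and TFF2 were past 2-fold higher with OVOL2 (log2 ratios 1.25 and 1.20). In PC3-Epi both were below PC3-EMT14 (-0.36 and -0.57). SPDEF, a transcription factor of secretory cells, was past 2-fold higher in PC3-Epi (1.18), with 0.40 in the OVOL1 line and 0.04 in the OVOL2 line.

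**Figure D4:**
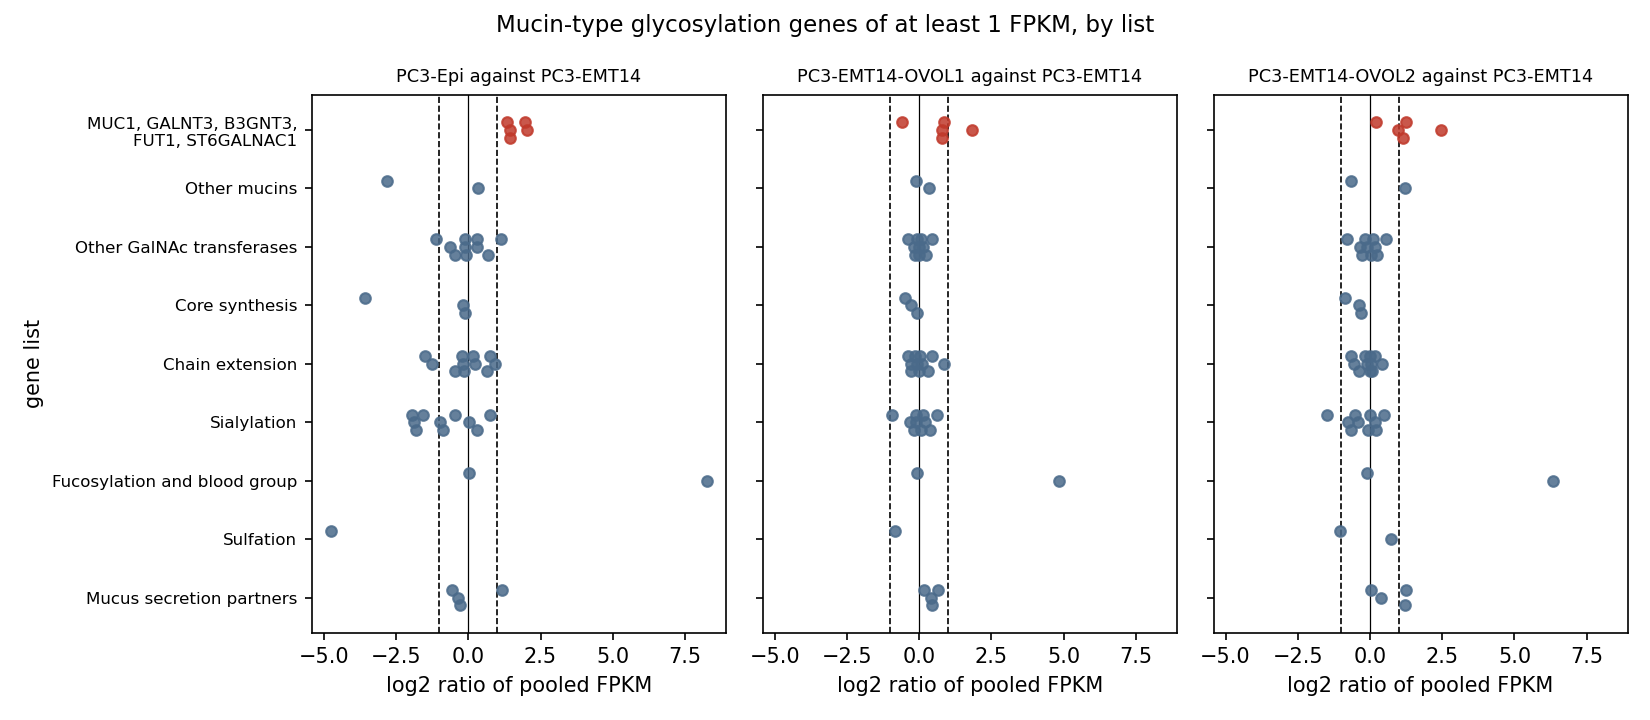
Log2 ratio of pooled FPKM against PC3-EMT14 for the glycosylation genes at 1 FPKM or more, 1 point per gene and 1 row per list, with dashed lines at 2-fold. The 5 described genes (red) lie right of 0 except MUC1 with OVOL1, the sialylation row reaches to the left in PC3-Epi, and FUT3 is the point farthest right.

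The neighbours of each gene were examined to see whether a stretch of the chromosome differed as well. The 50 expressed genes around GALNT3 (25 on each side, chr2:152104728-173371181) had a median log2 ratio of 0.61 between PC3-Epi and PC3-EMT14. Of these 50, 37 were above 0, 10 past 2-fold higher and 3 lower. Of all 12441 genes at 1 FPKM or more in the higher line, 6109 were above 0, 7.37% past 2-fold higher and 8.34% lower. GALNT3 itself, at 2.01, was exceeded by 2 of the neighbours, ITGB6 and IFIH1, which were picked out after their values were seen. In the OVOL1 and OVOL2 comparisons the 50 neighbours, chosen anew by their level in those lines and so not all the same genes, had medians of 0.03 and -0.09. For MUC1, B3GNT3, FUT1 and ST6GALNAC1 the neighbours' medians in PC3-Epi were between -0.29 and -0.10, below 0 where the genes themselves were above it. The part of the shifted neighbourhood in the GALNT3 value of PC3-Epi was not tested.

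**Figure D5:**
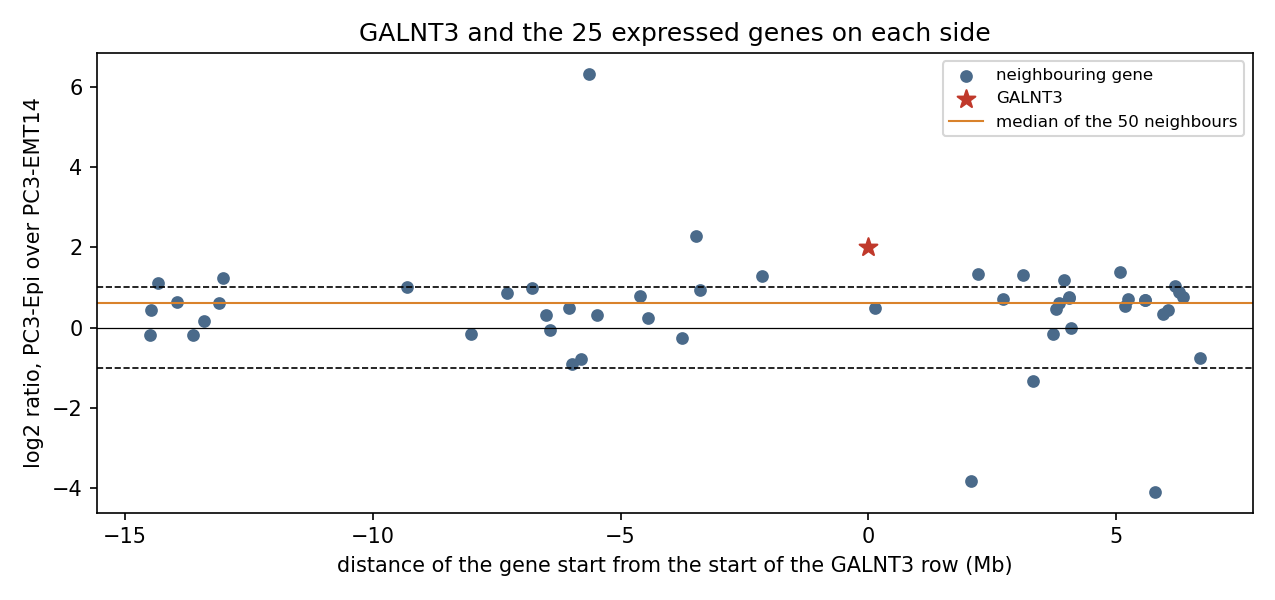
Log2 ratio of PC3-Epi over PC3-EMT14 for GALNT3 (star) and the 25 genes at 1 FPKM or more on each side, against distance in Mb between the lower ends of the gene rows. The median of the 50 neighbours (orange line) is 0.61, and GALNT3 is at 2.01.

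The genes with the most similar profile over the 4 lines were found by Euclidean distance between log2(FPKM + 1) values, each centred on its own mean, among 12633 other genes. For B3GNT3 they were PTGES, a prostaglandin E synthase (9.45 FPKM in PC3-EMT14, 15.7 and 20.8 in the OVOL1 and OVOL2 lines and 25.9 in PC3-Epi), and GRHL1, a grainyhead transcription factor of epithelia (1.38, 2.93, 3.77 and 5.13). For GALNT3 they were BCYRN1 and FAM108C1, for FUT1 TRIM14, and for MUC1 SERPINA1 and NPM2. For ST6GALNAC1 they were SLC6A14, an amino acid transporter (0.0404, 1.48, 2.18 and 0.671 FPKM), and TTC39A (1.52, 3.96, 6.39 and 2.69). Both were also highest in PC3-EMT14-OVOL2 and above PC3-Epi in both OVOL lines. This follows largely from their choice by profile and is no separate result. Among the matches named, the distance ran from 0.0533 for TRIM14 to 0.261 for TTC39A. These are distances over 4 values, 1 per line.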

How the data were processed

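Total RNA of 10 samples of 4 PC3 lines was sequenced. The authors aligned reads to hg19 with TopHat and ran Cuffdiff with bias correction, correction for multi-mapped reads, upper-quartile normalization and compatible-hit counting. The deposited tables, 1 for genes and 1 for isoforms in each of 4 comparisons, hold FPKM, pooled by the authors to 1 value per line. The scaling was made within each pair of lines, so levels of different tables share no exact scale. The tables also hold the authors' fold changes, test statistics, p-values and q-values, which were not used. Their status flag, which marks rows with enough fragments for a test, served only in an alternative count. Depth per sample and strand setting are not given in the sources used here.

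Rows were found by symbol (columns paired with lines by the line names in each row), ratios were taken within a table without pseudocount, and 2-fold, the fold in the study's methods, was applied from 1 FPKM in the higher line. No test was run. Alternatives were other folds (1.5 and 4), floors (none and 5 FPKM), pseudocounts (0.1 and 1), median centring, summed isoforms, flagged rows only, and ratios through other tables. Named were the 9 genes, pathway genes past 2-fold in at least 2 of 3 comparisons against PC3-EMT14, the 2 nearest profiles of each gene reaching 1 FPKM, OVOL1, OVOL2 and the line markers. Some markers and a nearest profile are not reported here. Other pathway genes are named after their values were seen. The genes and lists were chosen with earlier results of these data known. Python 3.11.15, numpy 2.4.6 and pandas 2.3.3 were used.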

Additional observations from a re-analysis of the deposited data

How the results depend on the processing

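No paired analysis was possible because the tables pool the samples of a line to 1 value, and leaving out replicates could not be done for the same reason. No depth is known, so counting error has no bound.

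Of 171 ratios of the 9 genes recomputed under other settings, 27 moved by 1.5-fold or more, all under a pseudocount. A reversal was looked for only where a ratio was past 2-fold, and 0 were found. A pseudocount added to both values cannot change the direction of a ratio, so this 0 does not tell how stable the calls are. In the order PC3-Epi, the OVOL1 line and the OVOL2 line against PC3-EMT14, then OVOL2 against OVOL1, 5, 1, 3 and 0 of the 9 genes were past 2-fold. Without a floor the counts, higher and lower together, were 9, 4, 4 and 4. Of these, MUC13 was lower in PC3-Epi, and MUC15 and MUC20 were lower with OVOL1. At 4-fold the counts were 1, 0, 1 and 0, and with a floor of 5 FPKM 2, 0, 2 and 0. At 1.5-fold they were 5, 5, 4 and 2, where MUC1 was lower with OVOL1. All other genes in these counts were higher. With a pseudocount of 1 FPKM, 3 were past 2-fold in PC3-Epi, since MUC1 and ST6GALNAC1 fell below it (log2 ratios 0.91 and 0.91). With OVOL2, 2 were past 2-fold, since FUT1 fell below it (0.52 in place of 1.13).

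Of the other pathway genes, 3, 1, 4 and 2 were higher and 10, 0, 2 and 0 lower. Without a floor 21, 15, 20 and 12 were higher and 18, 7, 8 and 9 lower. At 1.5-fold 8 were higher in PC3-Epi, 4 with OVOL1 and 5 between the OVOL lines, and 2, 8 and 1 lower with OVOL1, with OVOL2 and between the OVOL lines. At 4-fold 1 was higher and 3 lower in PC3-Epi, 1 higher and 0 lower with OVOL2, and 0 higher between the OVOL lines. A floor of 5 FPKM left 0 higher with OVOL1 and between the OVOL lines. A pseudocount of 0.1 or 1 left 1 higher between the OVOL lines, and 1 FPKM left 1 lower with OVOL2. Median centring, summed isoforms, flagged rows and other tables left every count within 1.5 times, and through other tables no ratio was available for PC3-Epi. The cause of these changes is the construction of each setting, since a lower fold or floor admits more genes.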
